A study of Mus musculus with 11 samples.

Results

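The Wnt pathway was examined through 10 genes in embryonic mouse neural progenitors with and without Syncrip, an RNA-binding protein also called hnRNP Q. The 10 genes are the ligand gene Wnt7b, the receptor gene Fzd8, the secreted inhibitor gene Sfrp1, the gene of the transducer β-catenin (Ctnnb1), the nuclear factor genes Lef1, Tcf7l1 and Tcf7l2, and the Wnt-responsive genes Axin2, Nkd1 and Sp5. They were taken by name, and all 10 are present among the 48440 genes of a read count table from cultured cells and among the 32285 genes of both single-cell matrices. The cultures were neural progenitor cells (NPCs) dissected around the lateral ventricles at E14.5 and grown with EGF and bFGF, 3 of them labelled WT and 3 labelled cKO. The single cells came from the dorsal telencephalon of 1 WT and 1 cKO embryo at E14.5, carried by the same pregnant mouse. The conditional knockout (cKO) is a C57BL/6 mouse with Syncrip fl/fl, in which loxP sites flank exons 2, 3 and 4, crossed to Emx1-Cre. Emx1-Cre is active in the dorsal telencephalon and its excitatory lineage, so ventral interneurons, vessels and microglia in the same tissue carry an intact gene. The Cre line of the cultures is not stated separately, and neither is whether the 6 cultures came from separate animals, so their p-values measure the spread between these cultures.

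In canonical Wnt signalling, a secreted Wnt protein binds a Frizzled receptor and an LRP co-receptor, which frees β-catenin from a destruction complex built around Axin and APC. β-catenin then enters the nucleus, binds TCF/LEF proteins and turns on their targets, several of which (Axin2, Nkd1) feed back to dampen the signal. In the developing cortex the pathway is known for keeping apical progenitors dividing, for patterning the medial pallium and, later, for neuronal differentiation. Lef1 is both a TCF/LEF factor and a target, while Tcf7l1 acts largely as a repressor.

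The 6 culture libraries held 16962903 to 22708400 counts, and a count of 3, the floor used here, is worth 0.134 to 0.175 CPM, that is, counts scaled to the size of the library. Intervals and floors cover counting error only. Y-linked counts reached 5903 to 9232 in WT cultures 1 and 2 and cKO culture 1 and at most 1 in the other 3. The 2 embryos differed in sex as well, with 22062 Y-linked and 2 Xist UMIs (unique molecular identifiers) in the WT cells and 211 and 105339 in the cKO cells, so sex and genotype cannot be told apart there. Syncrip itself did not mark the cKO label in either assay. Its CPM was 77.9, 79.8 and 79.9 in WT and 90.3, 88.7 and 81.5 in cKO (log2 fold change 0.13, SE 0.08, edgeR adjusted p = 0.180), and another gene overlaps 27.0% of its span. In progenitors of the embryos its level was 315 CPM in WT, against 323 CPM in cKO. Counts over the whole gene include exons outside the deleted part and so do not check the deletion. The paper shows loss of the deleted exons in RNA-seq tracks of E14.5 neurospheres, and checked the protein by blot and staining.

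Because TCF/LEF proteins act at DNA, the stretch just upstream of 4 Wnt-responsive genes was read from the RefSeq promoter table (GRCm38), 250 bases up to the annotated start. Axin2 (chr11:108920349-108950783, + strand) and Lef1 (chr3:131110471-131224356, + strand) are shown as the members with lower levels in cKO progenitors below, and Sp5 (chr2:70474923-70477729, + strand) as the member that carries a TCF/LEF motif in this stretch. Mycn, a proto-oncogene outside the 10 genes, is shown because it holds the motif and was lower in both assays, and it was chosen after its values were seen. The windows are chr11:108920099-108920348 for Axin2, chr3:131110073-131110322 for Lef1 (the nearest of 4 listed starts), chr2:70474673-70474922 for Sp5, and chr12:12941837-12942086 on the minus strand for Mycn. Capitals mark a match to CTTTGAT or CTTTGAA on either strand.
Axin2: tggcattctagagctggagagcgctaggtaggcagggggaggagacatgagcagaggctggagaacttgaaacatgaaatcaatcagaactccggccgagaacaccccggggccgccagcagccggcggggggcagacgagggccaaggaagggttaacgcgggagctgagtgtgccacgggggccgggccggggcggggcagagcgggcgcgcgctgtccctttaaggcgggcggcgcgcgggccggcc
Lef1: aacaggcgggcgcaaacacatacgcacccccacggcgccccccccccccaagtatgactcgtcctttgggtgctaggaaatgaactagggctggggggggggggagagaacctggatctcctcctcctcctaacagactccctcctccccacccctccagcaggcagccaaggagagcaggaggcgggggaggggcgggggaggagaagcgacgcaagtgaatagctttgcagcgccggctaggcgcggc
Sp5: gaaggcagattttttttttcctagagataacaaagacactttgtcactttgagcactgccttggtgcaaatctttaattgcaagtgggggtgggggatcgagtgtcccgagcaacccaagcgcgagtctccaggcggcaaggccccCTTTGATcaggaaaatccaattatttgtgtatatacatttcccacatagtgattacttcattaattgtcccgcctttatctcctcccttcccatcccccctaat
Mycn: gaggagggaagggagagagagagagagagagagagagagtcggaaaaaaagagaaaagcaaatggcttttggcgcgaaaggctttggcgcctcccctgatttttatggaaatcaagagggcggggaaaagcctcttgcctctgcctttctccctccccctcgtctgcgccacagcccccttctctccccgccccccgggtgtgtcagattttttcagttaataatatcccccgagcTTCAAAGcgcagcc

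The match in Sp5 lay 104 bases before its start and that in Mycn 14 bases before, on the opposite strand. Among the 7 members with an entry (Axin2, Lef1, Tcf7l1, Tcf7l2, Ctnnb1, Nkd1 and Sp5), only Sp5 held a match in this window. Of 27025 genes with a window, 8.63% held one, and of 61 other genes of the pathway 7 did, namely Wnt5b, Wnt11, Gsk3a, Dkk1, Mycn, Sp8 and Tnfrsf19. These are matches of letters and not measured binding sites.

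Of the 10 members, 8 passed the count filter in the cultures, where 39.5% of the 14432 genes tested differed between genotypes at an edgeR adjusted p below 0.05. Higher levels in cKO were found for 19.7% of all genes and for 1 of the 8 members (Tcf7l2), and lower levels for 19.8% of all genes and for 2 of the 8 (Sfrp1 and Fzd8). Cultures of the genotypes did not overlap for 3709 higher and 3566 lower genes of the 14432, and for 1 higher and 2 lower members. The median log2 fold change was -0.10 over the 8 members and 0.00 over all genes tested. A bulk difference of this kind cannot tell fewer cells of a type from less RNA per cell. Summed CPM of the 12 apical progenitor markers was 6707 to 8097 in WT and 7210 to 8071 in cKO cultures, so the labelled cell type was present in both, while markers of microglia, endothelium and red blood cells summed to at most 4.28 CPM each. The pericyte list summed to 270 to 334 CPM in WT and 310 to 346 CPM in cKO.

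**Figure D1:**
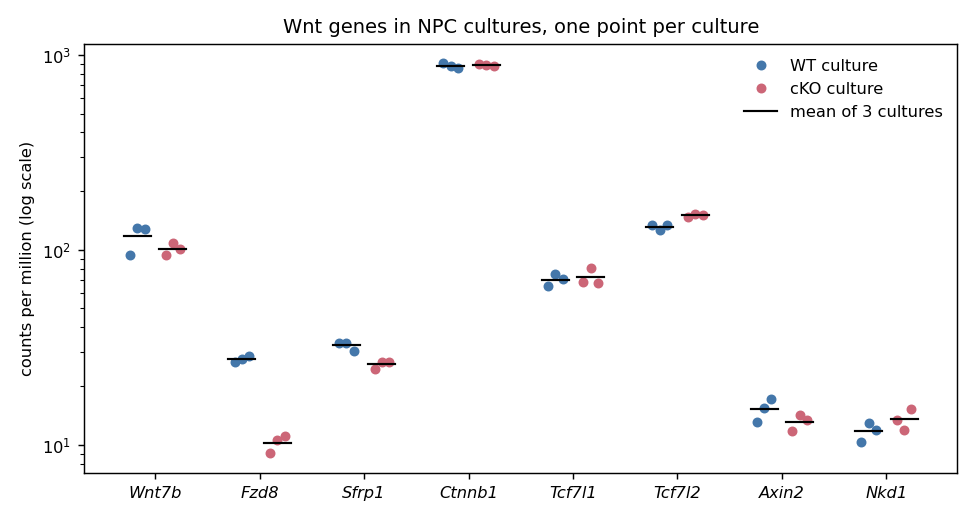
CPM of the 8 members tested in the 6 NPC cultures on a log axis, with 1 point per culture and a bar at each group's mean. Fzd8 stands apart with 9.02 to 11.1 CPM in cKO against 26.6 to 28.6 CPM in WT, and Lef1 and Sp5, with at most 3 counts in any culture, are not drawn.

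Among ligands and receptors, Fzd8, the gene of a Frizzled receptor strongly expressed in ventricular progenitors, fell in the cKO cultures. It was at 26.6, 27.4 and 28.6 CPM in WT and at 9.02, 10.5 and 11.1 CPM in cKO. The groups lay far apart, with means of 27.5 ± 0.976 and 10.2 ± 1.09 CPM (SD, n = 3 cultures each). The log2 fold change was -1.43 (SE 0.12, edgeR adjusted p = 6.42e-07), 0.372 of the WT level, and passed under all 14 alternative analyses with values of -1.49 to -1.35.

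Wnt7b (chr15:85535439-85581821, - strand), a canonical Wnt ligand of cortical neurons, was at 93.7, 129 and 128 CPM in WT and at 94.1, 108 and 101 CPM in cKO. WT culture 1 lay just below every cKO culture and the other two WT cultures above all of them. The log2 fold change of -0.21 (SE 0.11) did not pass (edgeR adjusted p = 0.139). Without WT culture 1 it was -0.36 and passed (edgeR adjusted p = 6.42e-04), and it also passed without a count filter and with sex as a covariate.

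Sfrp1 (chr8:23411502-23449632, + strand), which encodes a secreted protein that binds Wnts and Frizzled receptors, fell slightly in the cKO cultures. Its CPM was 33.4, 33.4 and 30.1 in WT and 24.5, 26.7 and 26.7 in cKO. Every cKO culture lay below every WT culture. The log2 fold change was -0.32 (SE 0.09, edgeR adjusted p = 0.0173), and the adjusted p rose to 0.0515 without WT culture 2 and to 0.0838 without cKO culture 1.

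The transducer and 1 of the nuclear factors were level. Ctnnb1 (chr9:120929216-120960507, + strand) was at 903, 875 and 855 CPM in WT and at 895, 883 and 877 CPM in cKO, with a log2 fold change of 0.01 (SE 0.08, edgeR adjusted p = 0.912). The genotypes overlapped fully. Tcf7l1 (chr6:72626378-72789254, - strand) was at 65.4, 75.0 and 70.7 CPM in WT and 68.7, 80.2 and 67.9 CPM in cKO, again overlapping, with a log2 fold change of 0.04 (SE 0.09, edgeR adjusted p = 0.766).

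Tcf7l2 (chr19:55741810-55933654, + strand), a TCF factor known from intestine and thalamus, rose by a small amount. It was at 135, 126 and 134 CPM in WT and at 148, 153 and 151 CPM in cKO, with no overlap. The log2 fold change of 0.19 (SE 0.07) lay close to the threshold (edgeR adjusted p = 0.0402) and passed in 6 of 14 alternatives, where the adjusted p ran from 0.0229 to 0.141. It was lost when any 1 culture other than WT culture 1 was left out, at log2 fold changes of 0.15 to 0.21.

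Lef1 and Sp5 could not be tested in culture. Lef1 had 0, 1 and 0 counts in WT and 3, 1 and 0 in cKO, and Sp5, a zinc-finger transcription factor gene induced by Wnt in many embryonic tissues, had 1, 0 and 1 against 1, 0 and 0. All 12 values were at or below the floor of 3 counts.

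The feedback genes did not pass the test. Axin2, which encodes a scaffold of the destruction complex and is widely used as a readout of canonical signalling, was at 13.1, 15.4 and 17.1 CPM in WT and at 11.8, 14.2 and 13.5 CPM in cKO (log2 fold change -0.21, SE 0.14, edgeR adjusted p = 0.228). Nkd1 (chr8:88521354-88594884, + strand), whose product binds Dishevelled and restrains the signal, was at 10.3, 12.98 and 11.9 CPM in WT and at 13.4, 11.9 and 15.2 CPM in cKO (log2 fold change 0.21, SE 0.14, edgeR adjusted p = 0.266). For both genes the cultures of the 2 genotypes overlapped, and neither passed in any of 14 alternatives.

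The other genes of the pathway, 91 listed by role, gave the members a wider frame. Of these, 71 were tested in culture, 17 were higher and 16 lower in cKO, and their median log2 fold change was -0.06, beside 19.7% higher and 19.8% lower among all genes tested. Receptors and co-receptors held 8 higher and 3 lower genes of 18 (median 0.29), and feedback and other target genes 3 higher and 6 lower of 14 (median -0.26). Both directions occurred in ligands and secretion factors (1 higher and 2 lower of 10), secreted inhibitors (1 and 1 of 5), cytoplasmic transduction (2 and 2 of 14) and nuclear cofactors (2 and 2 of 10).

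Among target genes, Mycn fell most in culture by log2 fold change. Its CPM was 8.65, 10.1 and 17.5 in WT and 1.91, 1.17 and 1.74 in cKO, without overlap (log2 fold change -2.90, SE 0.28, edgeR adjusted p = 3.81e-06). Id2, the gene of an inhibitor of bHLH factors, fell from a mean of 172 to 91.5 CPM (-0.91, SE 0.09, edgeR adjusted p = 4.00e-06). Sp8, a patterning factor gene close to Sp5, had a log2 fold change of -0.85 (SE 0.32, edgeR adjusted p = 0.0481), but its cultures overlapped (3.92, 2.67 and 6.65 CPM against 1.81, 2.16 and 3.37 CPM) and the call was lost in 4 of 6 analyses leaving out 1 culture, with a value of -0.43 without WT culture 3.

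Frizzled genes other than Fzd8 moved both ways. Fzd9 was at 19.4, 23.3 and 22.0 CPM in WT and at 45.6, 52.4 and 53.4 CPM in cKO (log2 fold change 1.23, SE 0.10, edgeR adjusted p = 1.06e-06). Fzd10 rose from a mean of 1.88 to 5.03 CPM (1.42, SE 0.29), and Fzd5 fell from 13.6 to 7.62 CPM (-0.84, SE 0.17). Fzd9 and Fzd10 thus rose in the same cultures in which Fzd8 and Fzd5 fell.

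Ligands at low levels changed in both directions too: Wnt4 rose from 1.68 to 4.46 CPM (log2 fold change 1.41, SE 0.26), whereas Wnt11 fell from 2.62 to 0.814 CPM (-1.67, SE 0.30) and Wnt2b from 6.65 to 4.03 CPM (-0.73, SE 0.20). Of the inhibitors, Sfrp5, a relative of Sfrp1, rose from 0.323 to 1.97 CPM (2.58, SE 0.59), and Dkk3 fell from 41.5 to 24.0 CPM (-0.80, SE 0.24, edgeR adjusted p = 0.0286). The Dkk3 call was lost without WT culture 1 and without cKO culture 3 (-0.92 and -0.83), and that of Wnt2b without cKO culture 3 (-0.60, edgeR adjusted p = 0.0628).

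Cytoplasmic and nuclear genes also moved both ways. Apc2, a relative of APC, fell from 298 to 199 CPM (log2 fold change -0.58, SE 0.11) and Gsk3a, a kinase of the destruction complex, from 78.8 to 63.6 CPM (-0.31, SE 0.09, not passing without cKO culture 3), while Ctnnbip1, which blocks the binding of β-catenin to TCF factors, rose from 77.0 to 104 CPM (0.44, SE 0.09). Groucho corepressors split, with Tle2 rising from 7.94 to 19.8 CPM (1.32, SE 0.13), Tle4 rising from 262 to 349 CPM (0.41, SE 0.09) and the short family member Aes falling from 177 to 125 CPM (-0.50, SE 0.10). From Fzd10 to Aes, the edgeR adjusted p-values were 6.15e-04 to 0.0286, except 5.23e-06 for Tle2.

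Markers of other states moved with genotype in the same cultures. None of 12 neuronal markers tested was higher and 8 were lower in cKO (median log2 fold change -0.72, summed level 2333 to 2685 CPM in WT and 2343 to 2509 CPM in cKO), and 6 of 7 astrocyte markers were lower (summed level 5873 to 6128 CPM and 3107 to 3536 CPM). Other neuronal lists differed, with 5 higher and 4 lower of 10 immature neuron markers (574 to 632 CPM and 732 to 749 CPM). Migrating neuron markers had 0 higher and 5 lower of 6. Of 10 cell cycle genes 9 were higher (268 to 325 CPM and 412 to 563 CPM), and of 10 ganglionic eminence markers 2 were higher and 4 lower (median -0.20), although their sum was 326 to 372 CPM in WT and 552 to 634 CPM in cKO. The part of these shifts in the Wnt results was not tested.

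The single-cell libraries held 8289 barcodes and 100172392 UMIs in WT and 9659 barcodes and 111313526 UMIs in cKO, of which 8214 and 9559 cells were kept (median 11705 and 11016 UMIs). The labels give about 6000 cells per channel. Only 22 barcodes occurred in both libraries. Clustering without the Wnt genes gave 25 clusters, named from lists of marker genes and called "-like" for that reason. Apical progenitor-like (AP-like) cells comprised 963 WT and 1323 cKO cells in 3 clusters, 2 of which raised all 12 AP markers and the third 11. With 1 embryo per genotype no test between genotypes was possible. Values below are UMIs summed over cells as CPM, and ratios carry 95% intervals for counting error only.

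In AP-like cells the members did not move as a block. Ratios of cKO over WT of at least 0.3 on the log2 scale were found for 6.54% of 10396 genes with 200 or more UMIs and for 1 of the 9 such members (Wnt7b), and ratios of -0.3 or less for 4.27% of genes and for 2 of the 9 (Lef1 and Axin2). The median over the 9 members was 0.11, against -0.01 over all genes. Sp5 had 7 UMIs in WT and 4 in cKO AP-like cells, too few for a ratio.

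**Figure D2:**
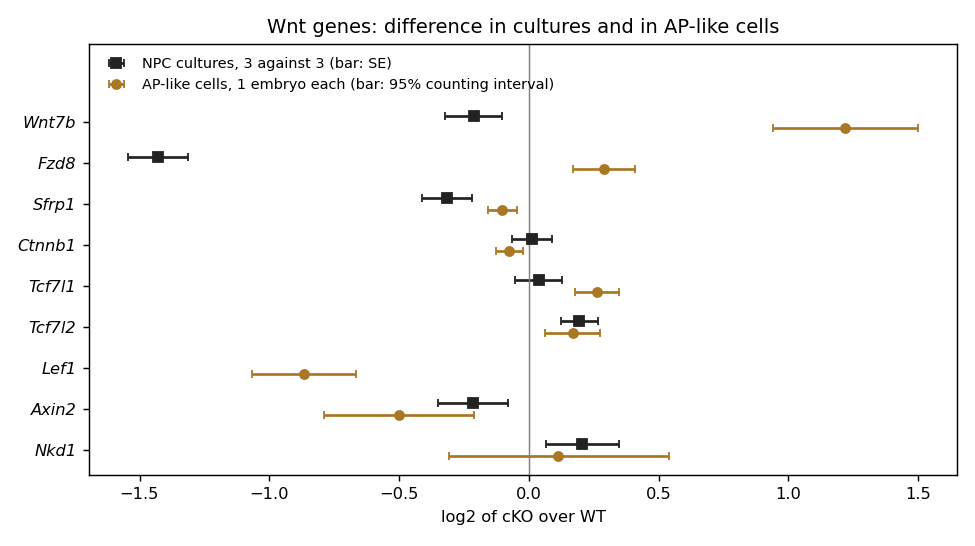
Log2 difference of cKO from WT for each member in the 6 cultures (edgeR fold change with its standard error) and in AP-like cells of 1 embryo per genotype (ratio of CPM with a 95% counting interval). Fzd8 is at -1.43 in culture and 0.29 in AP-like cells, and Wnt7b at -0.21 and 1.22.

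Lef1 was lower in the cKO AP-like cells. It had 457 UMIs (35.2 CPM, interval 32.1 to 38.6) in WT and 369 UMIs (19.3 CPM, 17.4 to 21.4) in cKO, a log2 ratio of -0.87 (-1.07 to -0.66). The intervals of the levels did not overlap. Alternative clusterings, weightings and thinning to 5000 UMIs per cell gave ratios of -1.17 to -0.83. In cluster 5, led by Aldoc and Hes5, the level was 32.0 CPM in WT, against 17.1 CPM in cKO (-0.91, -1.21 to -0.61), and in cluster 11, led by mitotic genes, it was 41.5 and 23.6 CPM (-0.81, -1.09 to -0.54).

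The Lef1 difference was also present by cell cycle phase, called from phase gene scores. Fewer cKO AP-like cells were called G1 (12.02% against 16.4%) and more S (42.5% against 32.5%), with 45.5% against 51.1% in G2/M. Lef1 was at 37.3 CPM in WT and at 16.5 CPM in cKO S-phase cells (-1.18, -1.53 to -0.83) and at 38.1 and 22.6 CPM in G2/M cells (-0.75, -1.02 to -0.49). In G1 cells, with 41 and 26 UMIs, the ratio was -0.61 and its interval included 0 (-1.38 to 0.13). Within the WT embryo, Lef1 was higher in S than in G1 (log2 ratio 0.84, 0.33 to 1.37).

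Axin2 was at 15.1 CPM (196 UMIs) in WT and 10.7 CPM (204 UMIs) in cKO AP-like cells, a log2 ratio of -0.50 (-0.79 to -0.21). It was -0.84 (-1.24 to -0.45) in G2/M and -0.02 (-0.53 to 0.51) in S phase, with intervals that overlapped. After thinning every cell to 5000 UMIs the ratio was -0.04 (-0.56 to 0.49, from 54 and 77 UMIs), while the same cells before thinning gave -0.54 (-0.83 to -0.24). The thinned interval held both 0 and the ratio of the same cells before thinning.

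Of the other nuclear factors, Tcf7l1 was at 132 CPM in WT and at 158 CPM in cKO AP-like cells (log2 ratio 0.26, 0.18 to 0.35), with alternatives of 0.21 to 0.30. Tcf7l2 was at 88.7 and 99.7 CPM (0.17, 0.06 to 0.28; alternatives 0.06 to 0.31). Both of these pooled ratios lay short of the 0.3 cut. By phase, Tcf7l2 was at -0.29 (-0.68 to 0.10) in G1, 0.05 (-0.14 to 0.23) in S and 0.27 (0.13 to 0.41) in G2/M. In the same order Tcf7l1 was at -0.05 (-0.32 to 0.21), 0.31 (0.14 to 0.49) and 0.34 (0.23 to 0.45). Tcf7l1 varied with phase in both embryos, being higher in G2/M than in S by 0.68 (0.52 to 0.85) in WT and by 0.71 (0.59 to 0.83) in cKO on the log2 scale.

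Wnt7b was the member with the largest ratio among the 9. It was at 10.8 CPM (140 UMIs) in WT and at 25.1 CPM (479 UMIs) in cKO AP-like cells, a log2 ratio of 1.22 (0.94 to 1.499), with alternatives of 0.88 to 1.34. The ratio was 1.25 in G1, 1.34 in S and 1.11 in G2/M. Most genes of a neuronal list were higher in the same cells, with 9 of 13 past 0.3 (summed level 1089 CPM in WT and 1288 CPM in cKO). Among them were Tbr1 at 9.80 and 15.5 CPM and Neurod6 at 83.7 and 109 CPM. Of 11 immature neuron markers, which include these 2 genes, 4 were past 0.3 upward and 2 downward (median 0.03). Of 7 migrating neuron markers 4 were past it upward and 0 downward (median 0.38). Ganglionic eminence markers had 6 upward and 1 downward of 9 (median 0.40, summed level 439 and 513 CPM). Whether neuronal RNA in AP-like cells has a part in the Wnt7b ratio was not tested.

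The remaining members differed little. Fzd8 was at 69.0 CPM in WT and at 84.2 CPM in cKO AP-like cells (log2 ratio 0.29, 0.17 to 0.41; alternatives 0.13 to 0.33), the opposite sign to the cultures. By phase the Fzd8 ratio was -0.04 (-0.37 to 0.28) in G1, 0.31 in S and 0.38 in G2/M. Sfrp1 was at 339 and 316 CPM (-0.10, -0.16 to -0.05) and Ctnnb1 at 392 and 373 CPM (-0.07, -0.13 to -0.02). For Nkd1, at 6.02 CPM (78 UMIs) and 6.50 CPM (124 UMIs), the interval included 0 (0.11, -0.31 to 0.54).

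Genes that mark position in the cortex also differed between the AP-like cells of the 2 embryos. The medial marker Zic1 was at 17.6 CPM in WT and at 3.09 CPM in cKO, and the lateral and caudal gene Nr2f2 at 14.1 and 38.3 CPM, both chosen after their values were seen. Of 5 lateral pallium markers 3 were past 0.3 in cKO (summed level 2858 and 3312 CPM). Of 5 medial markers 1 was higher (Rspo3, log2 ratio 0.85) and 1 lower (Zic1). Rspo3 is not particular to medial progenitors here, being also among the leading genes of immature neuron-like cluster 2. The medial markers had a median log2 ratio of 0.08 and summed to 629 and 613 CPM. Red blood cell genes summed to 88.8 CPM in WT and 296 CPM in cKO AP-like cells, microglial genes to 10.8 and 13.1 CPM and endothelial genes to 12.2 and 9.54 CPM. The part of dissection position or free RNA in the member ratios was not tested.

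Across the wider pathway, 49 of the 91 other genes had 200 or more UMIs in AP-like cells, with 5 past 0.3 upward and 6 downward and a median of -0.03, beside 6.54% upward and 4.27% downward among all genes. Target genes held 4 of the 6 downward genes among 9 measured (median -0.20). They were Tnfrsf19, a TNF receptor family gene, at 63.3 CPM in WT and at 36.2 CPM in cKO (log2 ratio -0.81, -0.96 to -0.66), Sp8 (-0.50, -0.83 to -0.17), the cyclin gene Ccnd1 (-0.39, -0.53 to -0.26) and Mycn, at 65.5 and 50.8 CPM (-0.37, -0.50 to -0.23). For Ccnd1 the ratio after thinning was -0.16 (-0.41 to 0.08).

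Of 5 ligand and secretion genes with 200 or more UMIs, 3 were past 0.3 upward and none downward, namely Porcn, which lipidates Wnt proteins (0.57, 0.14 to 1.01), Wnt5b (0.34, 0.13 to 0.56) and Rspo3, a secreted enhancer of Wnt signalling (0.85, 0.48 to 1.24). Wls, needed for Wnt secretion, was at -0.13 (-0.40 to 0.14). Rspo3 was also counted among the medial pallium markers and was among the leading genes of immature neuron-like cluster 2. Whether neuronal RNA in AP-like cells has a part in the Rspo3 ratio was not tested. The Rspo3 ratio depended on the analysis and was -0.22 to -0.10 under 3 alternatives. Among receptors, Fzd9 was lower (-0.59, -0.89 to -0.30) and Fzd7 higher (0.55, 0.13 to 0.99), and the inhibitor Sfrp2, also counted among the lateral pallium markers, was higher (0.31, 0.15 to 0.46). The other inhibitor with 200 or more UMIs, Dkk3, was past the cut downward, with an interval that included 0 (-0.31, -0.64 to 0.03). None of 14 cytoplasmic and 9 nuclear cofactor genes passed 0.3 in either direction.

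**Figure D3:**
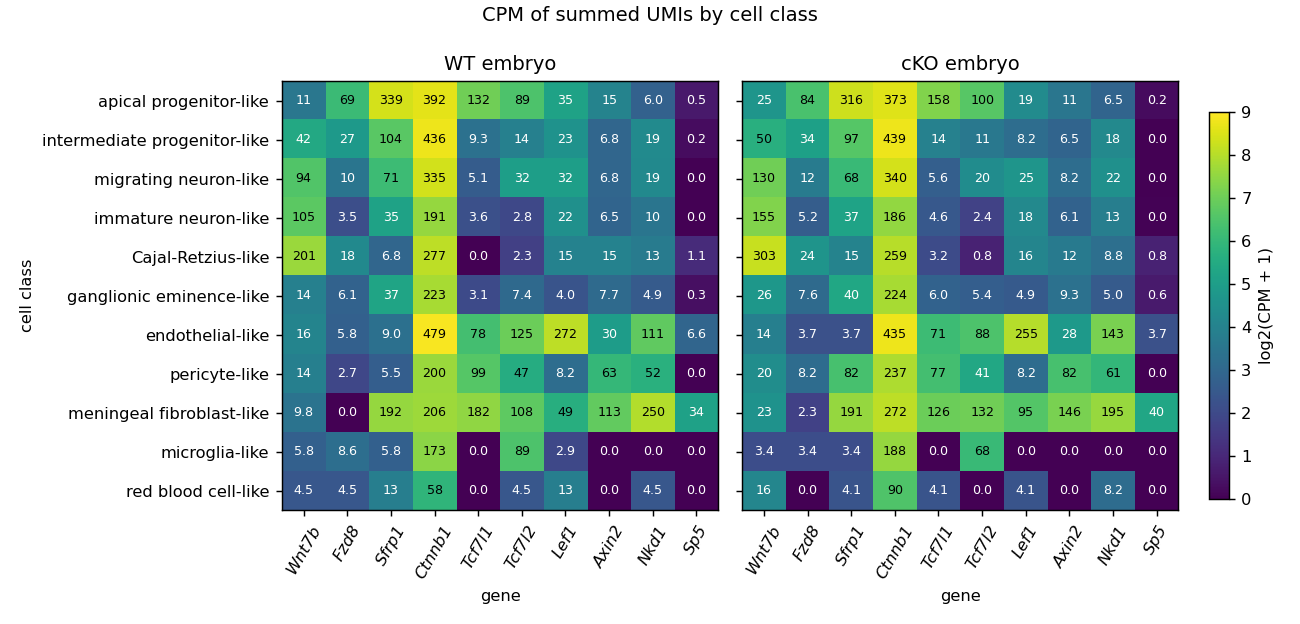
Level of each member in WT (left) and cKO (right) by marker-defined class, as log2(CPM + 1). Tcf7l1, Tcf7l2, Sfrp1 and Fzd8 are strongest in AP-like cells among neural classes, Wnt7b in neurons, and Lef1 in endothelial-like cells with 272 CPM in WT and 255 CPM in cKO.

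Across cell types, members differed in where their level peaked. Among the 12 classes or unnamed clusters with at least 50 cells in each embryo, 4 members had their WT peak in AP-like cells (2 at a clustering resolution of 1.2). Unnamed cluster 17, with a median of 1688 UMIs per WT cell, held the WT peaks of Axin2, Lef1 and Nkd1 from 5, 10 and 13 UMIs. By markers this cluster was closest to microglia and next to endothelium, with Lyz2, Aif1 and Cldn5 among its leading genes. Its Axin2 level of 25.2 CPM had an interval of 8.17 to 58.7 CPM, which included the 15.1 CPM of AP-like cells. Tcf7l1 declined from 132 CPM in AP-like cells to 9.34 CPM in intermediate progenitor-like (IP-like) cells, 5.10 CPM in migrating neuron-like and 3.63 CPM in immature neuron-like cells. Sfrp1 followed the same order with 339, 104, 71.3 and 35.3 CPM, and so did Fzd8 with 69.0, 27.2, 10.2 and 3.49 CPM. Counting intervals of neighbouring classes in these 3 series did not overlap in WT, except those of Tcf7l1 in the neuron classes, where the ratio of immature over migrating was -0.49 (-0.93 to -0.06).

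Tcf7l2 departed from that order, with 88.7 CPM in AP-like, 14.1 CPM in IP-like, 32.3 CPM in migrating and 2.83 CPM in immature neuron-like cells of WT. In migrating neuron-like cells it was lower in cKO, at 19.8 CPM (log2 ratio -0.71, -0.89 to -0.52; alternatives -0.85 to -0.70). The AP-like ratio of Tcf7l2 had the opposite sign.

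Wnt7b ran the other way, from 10.8 CPM in AP-like to 41.9 CPM in IP-like, 94.1 CPM in migrating and 105 CPM in immature neuron-like cells of WT, with 201 CPM in Cajal-Retzius-like cells. It was higher in cKO in each of these classes, by 0.26 (0.06 to 0.46) in IP-like, 0.47 (0.38 to 0.55) in migrating, 0.56 (0.48 to 0.63) in immature neuron-like and 0.59 (0.33 to 0.86) in Cajal-Retzius-like cells on the log2 scale. Ganglionic eminence-like cells, which Emx1-Cre does not target, were at 14.2 CPM in WT and at 25.9 CPM in cKO (0.86, 0.59 to 1.14). An exception was unnamed cluster 10, with 154 and 137 CPM (-0.17, -0.35 to 0.01). In non-neural classes, with 1 to 19 UMIs each, the level was 15.6 and 13.8 CPM in endothelial-like, 9.82 and 23.2 CPM in meningeal fibroblast-like, 13.7 and 20.4 CPM in pericyte-like, 5.75 and 3.42 CPM in microglia-like and 4.45 and 16.4 CPM in red blood cell-like cells. The AP-like level of WT lay within the WT range of these classes, and the cKO level of 25.1 CPM lay within the counting intervals of the cKO fibroblast-like (11.1 to 42.7 CPM), pericyte-like (6.62 to 47.6 CPM) and red blood cell-like cells (4.46 to 41.9 CPM). The cKO AP-like level lay above the interval of the cKO endothelial-like cells (7.72 to 22.7 CPM). Of the non-neural classes these held the most Wnt7b UMIs in cKO, at 15. The part of background in the AP-like level of Wnt7b was not tested.

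**Figure D4:**
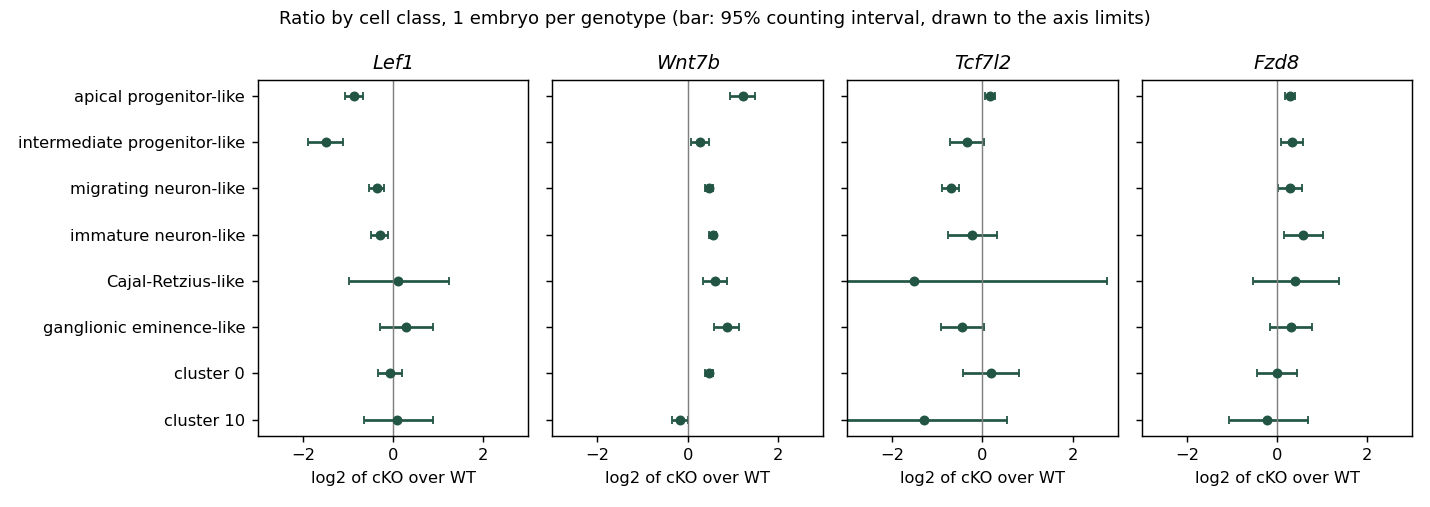
Log2 ratio of cKO over WT for Lef1, Wnt7b, Tcf7l2 and Fzd8 by marker-defined class, with 95% counting intervals (non-neural classes and 3 other unnamed clusters are not drawn). Lef1 lies below 0 from AP-like to immature neuron-like cells, and furthest below in IP-like cells at -1.50, while Wnt7b lies above 0 in 7 of the 8 classes and clusters drawn, unnamed cluster 10 being the exception.

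Lef1 had its largest difference of the neural classes in IP-like cells, the basal progenitors that follow AP-like cells. It was at 23.1 CPM in WT and at 8.19 CPM in cKO, a log2 ratio of -1.50 (-1.89 to -1.11), with alternatives of -1.49 to -1.32. All 3 IP-like clusters lay below 0, at -1.50, -1.33 and -1.41, the last 2 led by histone and mitotic genes and resting on 9 cKO UMIs each. In migrating neuron-like cells the levels were 31.7 and 24.6 CPM (-0.36, -0.54 to -0.19) and in immature neuron-like cells 22.0 and 17.8 CPM (-0.30, -0.49 to -0.11). The immature neuron-like ratio turned to 0.03 and 0.08 in 2 alternative analyses.

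Outside the Emx1 lineage the intervals of the Lef1 ratio included 0 in each class as a whole, but not in every cluster. Lef1 was at 4.002 CPM in WT and at 4.90 CPM in cKO ganglionic eminence-like cells (log2 ratio 0.29, -0.28 to 0.88), and at 272 and 255 CPM in endothelial-like cells (-0.10, -0.33 to 0.14), although those rest on 24 and 33 cells. In ganglionic eminence-like cluster 14, with histone and mitotic genes among those leading it, Lef1 was higher in cKO. Its cells had 8 Lef1 UMIs in WT and 27 in cKO (1.51, 0.33 to 2.86). The intervals of the other clusters of that class included 0. Unnamed clusters 0 and 10 showed ratios of -0.07 and 0.09. Over all kept cells Lef1 was at 25.8 CPM in WT and at 18.7 CPM in cKO.

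In IP-like cells Tcf7l1 was higher in cKO at 14.46 CPM (0.63, 0.23 to 1.04), as was Fzd8 at 34.0 CPM (0.32, 0.08 to 0.57). The Tcf7l2 interval included 0 there (-0.34, -0.72 to 0.05), and Axin2 was at 6.78 and 6.49 CPM (-0.06). Ctnnb1 was similar in the 2 embryos at 436 and 439 CPM in IP-like, 335 and 340 CPM in migrating, and 191 and 186 CPM in immature neuron-like cells. Sfrp1 was at 104 and 97.4 CPM in IP-like cells.

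The feedback genes were strongest in fibroblast-, pericyte- and endothelial-like cells, each of which numbered fewer than 50 per embryo. Axin2 was at 113 CPM in WT and at 146 CPM in cKO meningeal fibroblast-like cells and at 63.0 and 81.6 CPM in pericyte-like cells, against 15.1 CPM in WT AP-like cells. Nkd1 was at 250 and 195 CPM in fibroblast-like and 111 and 143 CPM in endothelial-like cells, and Sp5 at 34.4 and 39.5 CPM in fibroblast-like cells from 7 and 17 UMIs. Among neurons, Nkd1 was at 10.3 CPM in WT and at 13.5 CPM in cKO immature neuron-like cells (0.39, 0.14 to 0.65).

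Ganglionic eminence-like cells, 1190 in WT and 1637 in cKO, are not a target of Emx1-Cre and so give the members a view outside the targeted lineage. Syncrip itself was at 307 CPM in WT and at 266 CPM in cKO cells of this class (log2 ratio -0.21, -0.28 to -0.14). Tcf7l1 was higher in the cKO embryo there too, from 3.07 to 6.03 CPM (0.97, 0.38 to 1.60), although at levels far under those of AP-like cells. In 1 of its 4 clusters (14, with histone and mitotic genes among those leading it) the cells had 1 UMI in WT and 19 in cKO, and the intervals of the other 3 included 0, with ratios of 0.73 (-0.30 to 1.85) in cluster 4 and 0.42 (-0.41 to 1.30) in cluster 9. Ctnnb1 was at 223 and 224 CPM, Sfrp1 at 36.9 and 39.7 CPM, and Axin2 at 7.72 and 9.29 CPM with an interval that included 0 (0.27, -0.14 to 0.68). With Wnt7b, 2 members therefore had ratios above 0.3 with intervals above 0 in the untargeted class as well as in at least 1 targeted class. In endothelial-like cells, where the TCF/LEF factors are well expressed, Tcf7l2 was at 125 and 88.2 CPM (-0.50, -0.89 to -0.12) and Ctnnb1 at 479 and 435 CPM. Pericyte-like cells showed Sfrp1 from only 2 UMIs in WT and 20 in cKO.

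Over all kept cells of each embryo, whatever their class, the Lef1 ratio was -0.47 and those of Wnt7b, Tcf7l1 and Fzd8 were 0.40, 0.56 and 0.49 on the log2 scale. AP-like cells made up more of the cKO cells (1323 of 9559) than of the WT cells (963 of 8214), so totals over all cells carry a difference in composition as well as in level. Axin2 was near its WT level over all cells, with a ratio of 0.07.

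Likeness across cell types was measured as Pearson's r of log2(CPM + 5) over 42 pairs of cluster and embryo with at least 50 cells, among 10357 genes. The points share 2 libraries and the clusters of each, so r is a description. The closest genes were Lrp4, Megf10 and Pawr for Tcf7l1 (r = 0.95, 0.95 and 0.92), Yap1, Col4a5 and Fstl1 for Tcf7l2 (0.90, 0.87 and 0.84), Plpp3, Sfrp2 and Creb5 for Sfrp1 (0.92, 0.90 and 0.89) and Gca, Pea15a and Sox9 for Fzd8 (0.88, 0.87 and 0.87). For Wnt7b they were the neuronal genes Tbr1 (0.94) and Bhlhe22 (0.87) with Rab3d (0.87).

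Lef1 had weaker partners, led by the target gene Tnfrsf19 (0.76), then Tpcn1 (0.72) and Itpkb (0.71). Axin2 was closest to Slc7a1, Rap1a and Ammecr1 (0.89, 0.87 and 0.87), Ctnnb1 to Limd1, Ube2g2 and Ddb1 (0.90, 0.89 and 0.89), and Nkd1 to Cotl1, Itm2b and F13a1 (0.79, 0.77 and 0.74). Sp5, with 69 UMIs in all cells, is too sparse to rank. Between members r was 0.82 for Tcf7l1 with Tcf7l2, 0.81 for Tcf7l1 with Sfrp1, 0.80 for Fzd8 with Sfrp1, 0.49 for Axin2 with Lef1 and -0.33 for Wnt7b with Tcf7l1.

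Single AP-like cells thinned to 5000 UMIs gave a last view of Lef1. At that depth 112 of 782 WT cells and 80 of 1143 cKO cells carried a Lef1 UMI. Among WT cells those with a Lef1 UMI had more of the cortical patterning genes Emx2 (log2 ratio 0.63, 0.21 to 1.03) and Lhx2 (0.32, 0.15 to 0.50), both singled out after their values were seen. In cKO cells the same ratios were -0.26 (-0.85 to 0.28) and 0.20 (-0.01 to 0.40), with intervals that included 0. Axin2 was at 12.5 CPM in WT cells with and 14.0 CPM in WT cells without a Lef1 UMI, a difference within counting error (-0.17, -1.56 to 0.99).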

How the data were processed

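RNA-seq of 6 NPC cultures and scRNA-seq of 2 dorsal telencephalon samples were used, with groups taken from the labels. The deposited bulk values were whole-number read counts per gene made by the authors from HISAT2 alignments to mm10; the sources used here give no counter, annotation or strand setting. The deposited matrices held UMI counts from Cell Ranger 7.0.0. LACE-seq samples were not analysed here. The members, gene lists and tests were chosen with earlier results of these data known. Counts were tested with edgeR 4.0.16 (robust quasi-likelihood, TMM, default count filter, Benjamini-Hochberg threshold 0.05 over 14432 genes), after a check on simulated data. DESeq2 1.42.0, limma-voom (limma 3.58.1), RLE and upper quartile scaling, 2 other filters, sex and the replicate number as covariates, and leaving out each culture were alternatives. Tested genes were compared by CPM with TMM factors.

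Cells of 200 or more genes, with mitochondrial UMIs at or under 10%, were clustered with Seurat 5.3.0 (1979 variable genes without Wnt, sex and mitochondrial genes and Syncrip, 30 components, 20 neighbours, resolution 0.8). A cluster took a name from at least 3 raised markers, with limits tightened after the clusters were seen. Scrublet, run in scanpy 1.11.5, called 298 WT (3.63%) and 444 cKO (4.65%) doublets, which were kept and removed in an alternative. Ratios have exact conditional 95% intervals. Named pathway genes were, per role, at most 3 called in culture at 1 CPM or more, and in AP-like cells at most 10 with 200 UMIs and a log2 ratio past 0.3. Promoters came from RefSeq (GRCm38). Counting error at the depths reached here sets the intervals, and depth per culture was 16962903 to 22708400 counts.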

Additional observations from a re-analysis of the deposited data

Results flagged for a closer look

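Members and pathway genes named above were matched by symbol between the assays. Those counted here passed the test in culture without overlap and had 200 or more UMIs in AP-like cells, with a counting interval excluding 0. There were 10 of them. Of these, 5 had the same sign in both (Sfrp1, Tcf7l2, Mycn, Id2 and Fzd7) and 5 the opposite sign. No such share of signs was taken over all genes, so the even split describes only these 10. Aes was not matched, because the single-cell matrices list it as Tle5. The signs were opposite there too, with Aes at -0.50 in culture and Tle5 at 0.08 (0.01 to 0.15) in AP-like cells. The difference itself was not tested, since the embryos have no replicates. Fzd8 had a log2 ratio of 0.29 in AP-like cells and a log2 fold change of -1.43 in culture. Fzd9 was at -0.59 in AP-like cells and 1.23 in culture, and Ccnd1 at -0.39 and 0.40. For the target gene Tnfrsf19 the values were -0.81 in AP-like cells and 0.25 in culture, and for the β-catenin inhibitor Ctnnbip1 they were -0.10 and 0.44.

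Within the embryos, Tcf7l2 had a log2 ratio of -0.71 in migrating neuron-like cells and of 0.17 in AP-like cells, with intervals on opposite sides of 0. That difference was not tested either.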

How the results depend on the processing

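The number of members higher in cKO cultures was 1 (Tcf7l2) and became 0 without a count filter, with DESeq2 and with sex as a covariate, where the adjusted p of Tcf7l2 was 0.110, 0.0515 and 0.0750. Leaving out 1 culture gave 0 to 1 members higher and 1 to 3 lower, and 10 to 18 pathway genes lower (10 without cKO culture 3). The log2 fold change of Ctnnb1 was -0.000663 without a count filter and -0.00843 to 0.0256 when leaving out 1 culture, and that of Tcf7l1 -0.0427 to 0.0821. In single cells, 2 members instead of 4 peaked in AP-like cells at resolution 1.2. Rspo3 in AP-like cells turned to -0.18 (resolution 0.4), -0.10 (resolution 1.2) and -0.22 (cells of 1000 or more genes and up to 5% mitochondrial UMIs). Lef1 in immature neuron-like cells turned to 0.0266 and 0.0802 under the last 2 of these, and Fzd8 in migrating neuron-like cells to -0.12 under the last. The cause was not tested. The median ratio of the members in AP-like cells ran from -0.03 to 0.23 over 8 alternatives.

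Deviations of same-numbered cultures from their group means had r = 0.264, -0.0466 and 0.116, and WT culture 3 with cKO culture 2 had 0.286. With 3 cultures per genotype these values cannot decide whether the numbers pair the cultures. With the replicate number as a block, 1 member was higher and 3 lower (Wnt7b joining at -0.20, adjusted p = 0.0296), and 21 pathway genes were higher and 17 lower. One embryo per genotype, of different sex, limits the single-cell ratios, and the low counts of Lef1 and Sp5 limit the cultures. Analyses of other cell classes and of AP-like cells without their shallowest cluster were added after the data were seen.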
